A study of Medicago sativa with 3 samples.

Results

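Transcript levels of the grazing intolerant population MF200402 were set against those of the grazing tolerant population MF200401, both under sheep grazing, by the function of each transcript. The comparison covers assembled alfalfa transcripts whose best protein and best nucleotide match both carried a legume name and whose raw fragments in the 2 grazed libraries summed to at least 100. Of 95646 assembled transcripts, 52669 had both legume matches and 29144 also reached that sum. Both populations were selected within the cultivar 'Hulunbeier' of *Medicago sativa* ssp. *falcata*, MF200402 from plants that recovered poorly after grazing and MF200401 from plants that recovered rapidly. The intolerant grazed and tolerant grazed plants were clonal propagules sampled from a grazed block after the sheep had been removed. A library of tolerant plants from a fenced, ungrazed block, clipped to a similar height, is given as a further value for each transcript. Per the paper's methods, these were propagules of the same tolerant plants as in the grazed block, so the tolerant libraries share genotypes. Each library was made from a single RNA bulk that balanced leaf, stem and root RNA of several plants, with 1 library per group. There were no replicates, so no difference could be tested against the spread between plants, and the values below describe these libraries. Ungrazed intolerant plants were not analysed here, so a difference between the populations and a difference in their response to grazing cannot be told apart. In such bulks fewer cells of a type and less RNA per cell cannot be told apart either.

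Grazing removes leaves and shoot tips, wounds the remaining stems and leaves the plant to regrow from the crown with stored carbon and nitrogen. Plants answer wounding and microbes with receptor kinases at the cell surface and with nucleotide-binding leucine-rich repeat (NBS-LRR) proteins inside the cell, many of which carry a TIR domain at their start. Downstream of them stand calcium signals, WRKY transcription factors, the hormone jasmonate and secreted defence proteins such as chitinases and glucanases. Where oxygen is short, plant cells make ethanol through pyruvate decarboxylase and alcohol dehydrogenase.

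The intolerant grazed, tolerant grazed and tolerant ungrazed libraries held 22.3 M, 22.7 M and 22.8 M aligned fragments (M for mega), so depth was close to equal. Levels are given as FPKM, the fragments per kilobase of transcript and per megafragment aligned, and differences as the log2 ratio of FPKM, intolerant grazed over tolerant grazed, with 0.01 in place of an FPKM of 0. A transcript is called higher or lower in the intolerant grazed library at a log2 ratio of at least 1 or of -1 or less, which is 2-fold. The bracketed range after a log2 ratio is its exact Clopper-Pearson 95% interval, which covers counting error only. The 29144 transcripts took 86.5% of the intolerant grazed fragments, against 78.6% of the tolerant grazed fragments. A single transcript without a legume match, CL4238.Contig2_All, took 1.43% of the intolerant grazed library and 9.78% of the tolerant grazed library, and its fragments are part of the total by which every FPKM is divided. The median FPKM of the 29144 transcripts was 9.4 in the intolerant grazed and 8.03 in the tolerant grazed library, and their median log2 ratio was 0.24. All medians of function lists below are to be read relative to this shift.

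Of the 29144 transcripts, 4162 were higher in the intolerant grazed library, a share of 14.3%, and 2464 were lower, a share of 8.45%. The other 22518 (77.3%) lay within 2-fold. Over all 33288 transcripts with at least 100 fragments, legume-matched or not, 15.7% were higher and 9.97% lower. Among the 4144 that had no such match the shares were 25.3% and 20.6%, so the legume-matched transcripts were the more alike in the grazed libraries. When the log2 ratios were recentred on their median, 2760 were higher and 3447 lower, so the share of higher among all called transcripts was 44.5% in place of 62.8%. Calls were more frequent at low counts: 19.3% were higher and 10.7% were lower among the 11229 transcripts with 100 to under 300 summed fragments, against 9.49% and 6.97% among the 7248 with 1000 to under 10000. The 29144 transcripts came from 20165 assembly clusters or single transcripts and had 17381 best protein matches, so contigs of a cluster are not independent of each other.

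**Figure D1:**
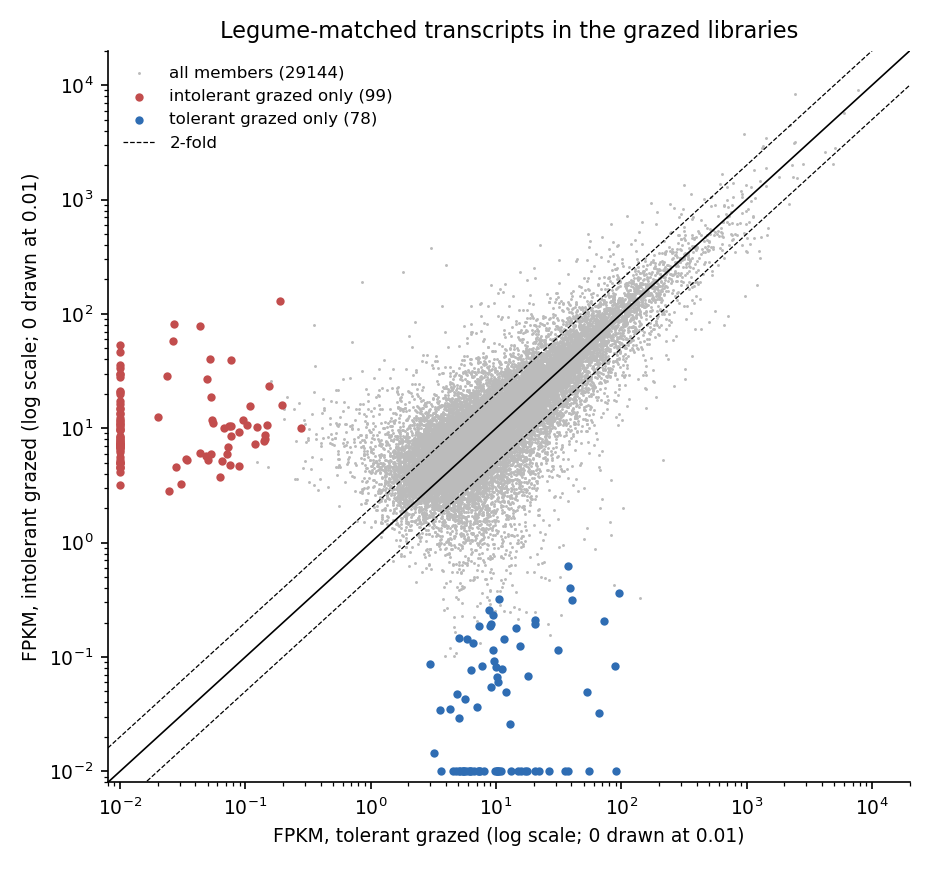
FPKM in the intolerant grazed library (vertical, log scale) against FPKM in the tolerant grazed library (horizontal, log scale) for the 29144 legume-matched transcripts, 1 point each, with an FPKM of 0 drawn at 0.01. Red points are the 99 transcripts with at least 100 fragments in the intolerant grazed and 3 or fewer in the tolerant grazed library, blue points the 78 with the reverse, and dashed lines mark 2-fold; 77.3% of the points lie between these lines.

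Among 50 lists of gene functions, matched by words in the protein name and together holding 7249 of the transcripts, the lists of immune receptors and wound signalling leaned towards lower levels in the intolerant grazed library and those of fermentation and nitrogen handling towards higher levels. Of 117 TIR-NBS-LRR receptors 59 were lower and 11 higher, while of 22 fermentation enzymes and phytoglobins 15 were higher and 1 lower. Ribosomal proteins, needed in every growing cell, stood close to the median of all legume-matched transcripts, with 24 of 288 higher and 7 lower. Recentring turned the order of higher and lower calls round in the lists of ribosomal proteins, translation factors, cytochrome P450s, UDP-glycosyltransferases, class III peroxidases, phenylpropanoid, terpene and wall polymer synthesis, auxin, ethylene and gibberellin genes, AP2/ERF and bHLH factors, storage proteins and cell division genes, so the higher and lower counts given below for these lists show no direction. The plot of calls by list shows these shares beside those of all transcripts.

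**Figure D2:**
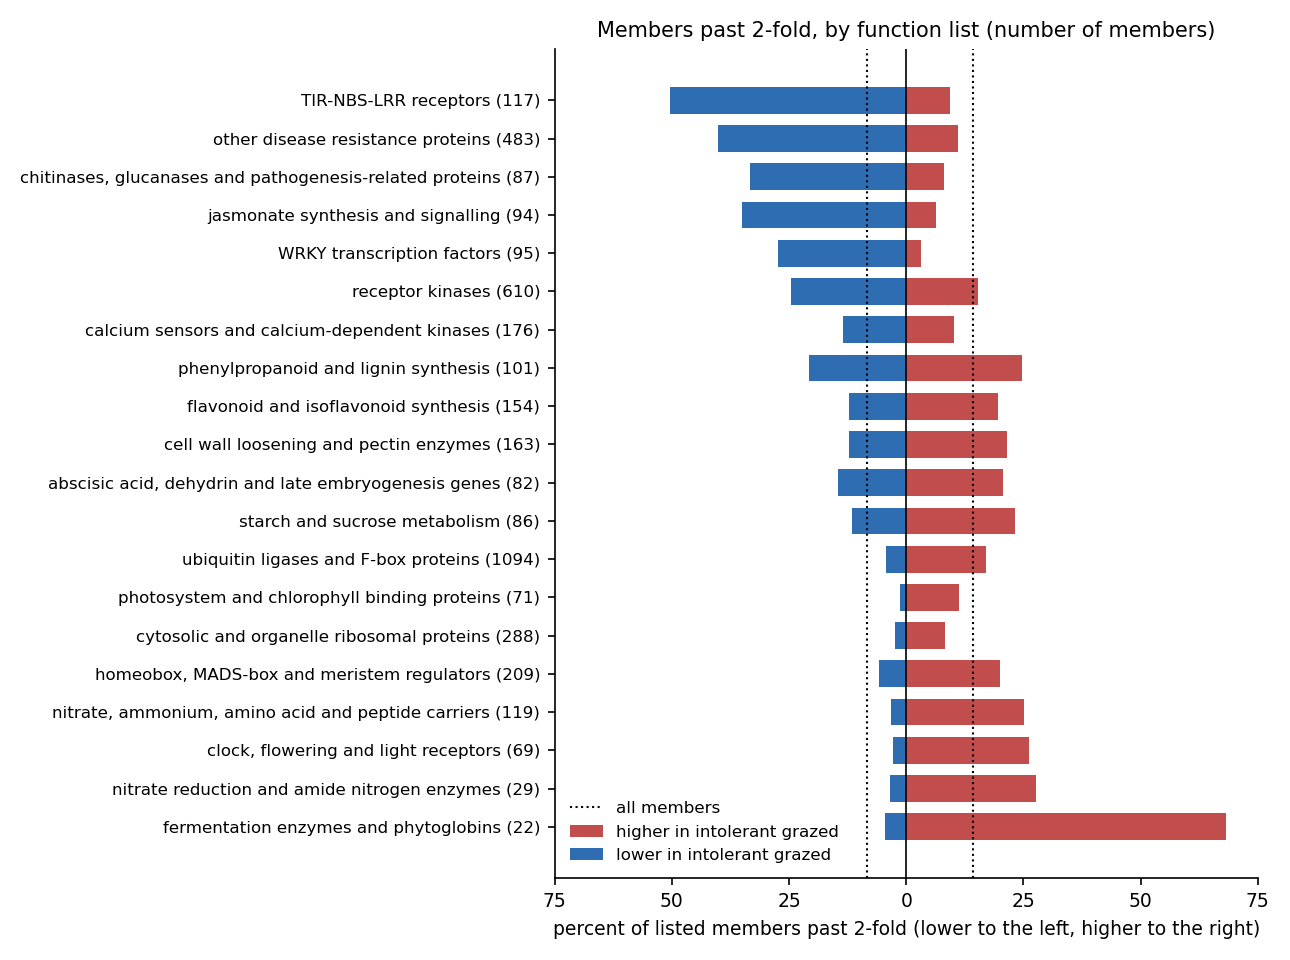
Percent of the transcripts in each of 20 function lists that were lower (blue, to the left) or higher (red, to the right) in the intolerant grazed than in the tolerant grazed library by 2-fold or more, with the number of listed transcripts in brackets. Dotted lines mark the shares over all 29144 transcripts, 8.45% lower and 14.3% higher; immune receptors extend far to the left and fermentation enzymes far to the right.

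Disease resistance proteins were lower in the intolerant grazed library more often than any other large group described here. Those of the NBS-LRR type sense products of microbes inside the cell and start local defence. The lists were matched by words in the name and also hold proteins of other roles. Of 600 transcripts in the lists of TIR-NBS-LRR receptors and other disease resistance proteins, 253 (42.2%) were lower and 64 (10.7%) higher. Among the 28544 transcripts outside both lists 7.75% were lower and 14.4% higher. The median log2 ratio of the 600 was -0.73, against 0.25 outside the lists, and 435 of the 600 (72.5%) lay below 0. With a minimum of 20 summed fragments the median of the TIR-NBS-LRR receptors was -0.86 in place of -1.08. That of the other resistance proteins was then -0.42 in place of -0.6. The 600 transcripts matched 230 proteins. The summed FPKM of the 117 TIR-NBS-LRR receptors was 632 in the intolerant grazed, 1490 in the tolerant grazed and 811 in the tolerant ungrazed library. That of the 483 other resistance proteins was 3288, 5211 and 3226 in the same order, so in both lists the tolerant grazed sum was the largest.

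The direction was similar at each level of abundance. Of the resistance proteins with 100 to under 300 summed fragments 159 of 386 were lower and 52 higher, of those with 300 to under 1000, 81 of 176 were lower and 12 higher, and of the 38 with 1000 or more, 13 were lower and 0 higher. Among the 234 transcripts longer than 1000 bases 101 were lower and 14 higher. In the comparison of the tolerant grazed with the tolerant ungrazed library, which shares the tolerant grazed library, 199 of the 600 stood at least 2-fold above the ungrazed level and 8 at least 2-fold under it. Over all 29144 transcripts these shares were 9.43% and 4.19%, and the minimum of 100 fragments was set on the grazed libraries alone.

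The most abundant TIR protein, Unigene18105_All, had 14.9 FPKM in the intolerant grazed, 156 in the tolerant grazed and 64.1 in the tolerant ungrazed library, a log2 ratio of -3.39 (-3.57 to -3.22). Unigene5911_All had 0 fragments in the intolerant grazed library, 388 in the tolerant grazed and 280 in the tolerant ungrazed library, at least 127-fold lower when set against a floor of 3 fragments. The list was not uniform, since CL299.Contig3_All had 10.5 FPKM in the intolerant grazed, 0.69 in the tolerant grazed and 0.476 in the tolerant ungrazed library, a log2 ratio of 3.93 (3.32 to 4.6). It stems from the same assembly cluster as CL299.Contig4_All, which had 1, 2094 and 1218 fragments in the same libraries. Fragments were assigned to both contigs by unique alignment, and whether the contigs are alleles was not tested. Summed over every transcript with its best protein match, CL299.Contig4_All stood at 4949 fragments in the intolerant grazed and 13439 in the tolerant grazed library.

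Smaller families of the same kinds of protein leaned the same way, but they were picked with their values in view and add no separate support. Of 252 legume-matched transcripts named as CC-NBS-LRR proteins 46 reached the minimum sum, with 16 lower and 2 higher. Of 145 matching the TMV resistance protein N, a tobacco TIR-NBS-LRR protein, 29 reached it, with 12 lower and 3 higher. RCT1 is a *Medicago* gene for resistance to anthracnose. Of 72 legume-matched transcripts matching RCT1-like proteins 9 reached the minimum sum, with 4 lower and 0 higher. Unigene23555_All, with 3 and 118 fragments, reached it through the tolerant grazed library. The summed FPKM of the 9 was 40.1 in the intolerant grazed, 80.1 in the tolerant grazed and 46.6 in the tolerant ungrazed library. Unigene13009_All, which matches NDR1, a membrane protein that many resistance proteins need in *Arabidopsis*, was the most abundant of the other resistance proteins, with 92.1, 193 and 95.7 FPKM in the intolerant grazed, tolerant grazed and tolerant ungrazed libraries and a log2 ratio of -1.07 (-1.15 to -0.98).

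The transcripts were assembled without a genome, so they have no coordinates of their own, but the *M. truncatula* locus tag in the best match placed 12498 of them on a chromosome of that relative. Of 404 resistance proteins placed in this way 140 fell on *M. truncatula* chromosome 6, and 76 of these (54.3%) were lower, against 67 of the 520 other transcripts placed on that chromosome (12.9%). On chromosome 4, 22 of 35 resistance proteins were lower (62.9%), and on chromosome 2, 11 of 14 (78.6%). On chromosomes 5 and 8 the shares were 19.3% of 57 and 24.4% of 45, while the shares among the other transcripts of these chromosomes were 7.87% and 6.99%. The median log2 ratio of the placed resistance proteins was below 0 on all 8 chromosomes, between -2.32 on chromosome 2 and -0.16 on chromosome 8.

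**Figure D3:**
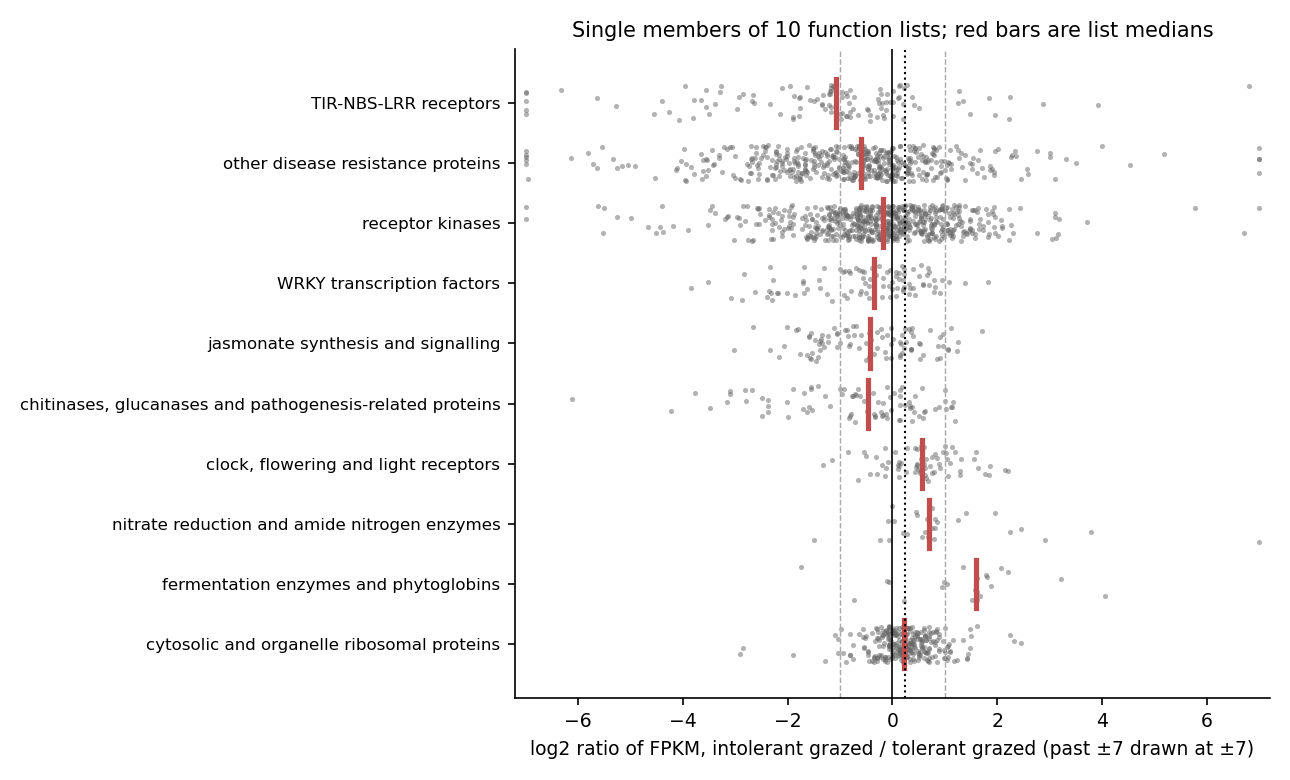
Log2 ratio of FPKM, intolerant grazed over tolerant grazed, of every transcript in 10 function lists, 1 point each, with ratios past 7 in size drawn at 7 and red bars at the list medians. The dotted line is the median of all 29144 transcripts, 0.24, and dashed lines mark 2-fold; the median of the TIR-NBS-LRR receptors lies at -1.08, that of the fermentation list at 1.59, and that of the ribosomal proteins on the dotted line.

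Receptor kinases, which sense signals at the cell surface, were called in both directions, with more lower than higher. Of 610 such transcripts 150 were lower and 94 higher, with a median of -0.18, and after recentring 182 were lower and 66 higher. Of 10 G-type lectin receptor kinases 8 were lower and 0 higher, and of 41 wall-associated kinases, which bind pectin, 17 were lower and 3 higher. Cysteine-rich receptor kinases had 37 lower and 20 higher among 109. Among receptor kinases with at least 300 summed fragments the lowest ratio was that of the LysM receptor kinase Unigene26366_All, from a family that perceives chitin and rhizobial signals, with 0.43 FPKM in the intolerant grazed, 13.5 in the tolerant grazed and 9.21 in the tolerant ungrazed library, a log2 ratio of -4.98 (-5.8 to -4.26). Unigene34769_All, a leucine-rich repeat kinase, had 31.7, 6.42 and 10.2 FPKM in the same order and a log2 ratio of 2.31 (1.92 to 2.71). The most abundant, the somatic embryogenesis receptor kinase Unigene22163_All, lay within 2-fold at 271, 216 and 187 FPKM.

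Among calcium sensors and calcium-dependent kinases 24 of 176 were lower and 18 higher, and the median of 0.01 became -0.23 after recentring. The kinases that act with calcineurin B-like sensors went the other way from the list, with 10 of 30 higher and 0 lower. CL10581.Contig2_All, of that family, had 37.7 FPKM in the intolerant grazed, 2.78 in the tolerant grazed and 3.89 in the tolerant ungrazed library, a log2 ratio of 3.76 (3.44 to 4.1). The calmodulin-like protein CL7817.Contig1_All had 17.9, 116 and 102 FPKM in the same order and a log2 ratio of -2.69 (-2.85 to -2.53), so here the intolerant grazed library was the low value and the tolerant libraries were close to each other.

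WRKY transcription factors, which act in defence and wound responses, were lower in the intolerant grazed library. Of 95 such transcripts 26 were lower and 3 higher, with a median of -0.36, and their summed FPKM was 2326 in the intolerant grazed, 4147 in the tolerant grazed and 4208 in the tolerant ungrazed library. CL2960.Contig1_All had 0.922, 13.3 and 6.09 FPKM in that order, a log2 ratio of -3.85 (-4.56 to -3.21). The most abundant, Unigene12996_All, had 225, 450 and 300 FPKM, and CL894.Contig3_All, the highest in ratio among those with at least 300 summed fragments, had 8.47, 4.42 and 5.14 FPKM and stayed under 2-fold.

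Secreted defence proteins were lower as well. Of 87 chitinases, glucanases and pathogenesis-related proteins 29 were lower and 7 higher, and the median was -0.47, or -0.24 with a minimum of 20 summed fragments. Of 15 disease resistance response proteins 10 were lower and 0 higher, with a summed FPKM of 148 in the intolerant grazed, 374 in the tolerant grazed and 612 in the tolerant ungrazed library. Of 8 beta-1,3-glucanases, which cut callose and fungal walls, 4 were lower and 0 higher, with sums of 100, 380 and 377 FPKM in that order. The thaumatin-like protein Unigene18320_All had 0.879, 61.2 and 64.3 FPKM and a log2 ratio of -6.12 (-6.86 to -5.47). The most abundant of the list went the other way: the defensin Unigene7621_All, a small antimicrobial peptide, had 437 FPKM in the intolerant grazed, 217 in the tolerant grazed and 242 in the tolerant ungrazed library, a log2 ratio of 1.01 (0.94 to 1.07).

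Jasmonate is made from fatty acids by lipoxygenase, allene oxide synthase and cyclase and 12-oxophytodienoate reductase, and TIFY (JAZ) proteins repress its targets until the hormone removes them. Of 94 transcripts for jasmonate synthesis and signalling 33 were lower in the intolerant grazed library and 6 higher, with a median of -0.43, or -0.26 when fragments were summed per best protein match. The reductases stood out, with 12 of 15 lower and 0 higher. The 15 had 7 best protein matches, and most of the lower ones were contigs of the clusters CL7839 and CL7067. The summed FPKM of the 15 reductases was 164 in the intolerant grazed, 405 in the tolerant grazed and 453 in the tolerant ungrazed library. The most abundant, CL7839.Contig6_All, had 25.4, 74.5 and 53.3 FPKM in that order, a log2 ratio of -1.55 (-1.65 to -1.45), and CL7067.Contig1_All, which matches the soybean reductase 3-like protein, the form of that number being the one that acts in jasmonate synthesis in *Arabidopsis*, had 0.992, 8.08 and 4.57 FPKM and a log2 ratio of -3.03 (-3.82 to -2.32). A single reductase lay above 0, CL11815.Contig3_All, at 3.86, 2.35 and 10.6 FPKM. Only the CL7067 contigs matched a protein named as form 3, and whether the other reductases act in jasmonate synthesis was not tested.

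TIFY repressors had 12 of 27 lower and 1 higher, with a summed FPKM of 1012 in the intolerant grazed, 1730 in the tolerant grazed and 907 in the tolerant ungrazed library. CL1601.Contig7_All, a TIFY 10A protein, had 30.8, 155 and 81.2 FPKM in that order and a log2 ratio of -2.33 (-2.46 to -2.21). The TIFY 5A protein CL11912.Contig3_All had 35.1, 158 and 44.4 FPKM and a log2 ratio of -2.17 (-2.29 to -2.05). Of the TIFY 10B contigs, the most abundant ones, CL7015.Contig2_All had 157, 236 and 166 FPKM and lay within 2-fold. Earlier in the pathway the picture was flatter: 7 of 39 lipoxygenases were lower and 3 higher, and of 6 allene oxide synthases and cyclases 1 was lower and 1 higher. The most abundant lipoxygenase, Unigene27820_All, had 618, 883 and 460 FPKM, within 2-fold, and the allene oxide synthase Unigene23595_All had 8.91, 2.72 and 8.73 FPKM with a log2 ratio of 1.71 (1.39 to 2.04).

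Fermentation enzymes were the list with the highest median ratio, 1.59. All 8 pyruvate decarboxylase transcripts were higher in the intolerant grazed library, with log2 ratios between 1.58 and 4.05 and a summed FPKM of 1057 in the intolerant grazed, 235 in the tolerant grazed and 2306 in the tolerant ungrazed library. For each of the 8 the tolerant grazed library was the lowest and the tolerant ungrazed library the highest. CL6015.Contig6_All had 125, 7.58 and 270 FPKM in the intolerant grazed, tolerant grazed and tolerant ungrazed libraries, a log2 ratio of 4.05 (3.86 to 4.23). Of these transcripts 7 were contigs of a single cluster, CL6015, so they share sequence.

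Of 12 alcohol dehydrogenases 6 were higher and 1 lower. The most abundant, CL1106.Contig1_All, had 1108 FPKM in the intolerant grazed, 361 in the tolerant grazed and 1504 in the tolerant ungrazed library, a log2 ratio of 1.62 (1.59 to 1.64). CL5182.Contig2_All went the other way, with 10.8, 36.3 and 42.4 FPKM in that order and a log2 ratio of -1.75 (-1.93 to -1.58). The phytoglobin Unigene24262_All, a non-symbiotic hemoglobin of the kind that removes nitric oxide when oxygen is short, had 195, 53.1 and 152 FPKM and a log2 ratio of 1.88 (1.79 to 1.97). Over the whole list the summed FPKM was 3217 in the intolerant grazed, 1023 in the tolerant grazed and 5455 in the tolerant ungrazed library. Glycolysis and citrate cycle enzymes, which supply and compete for the same pyruvate, had 17 of 109 higher and 9 lower, close to the shares of all transcripts, but the enolase contig CL10620.Contig1_All had 118, 3.69 and 8.03 FPKM and a log2 ratio of 4.99 (4.37 to 5.7).

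**Figure D4:**
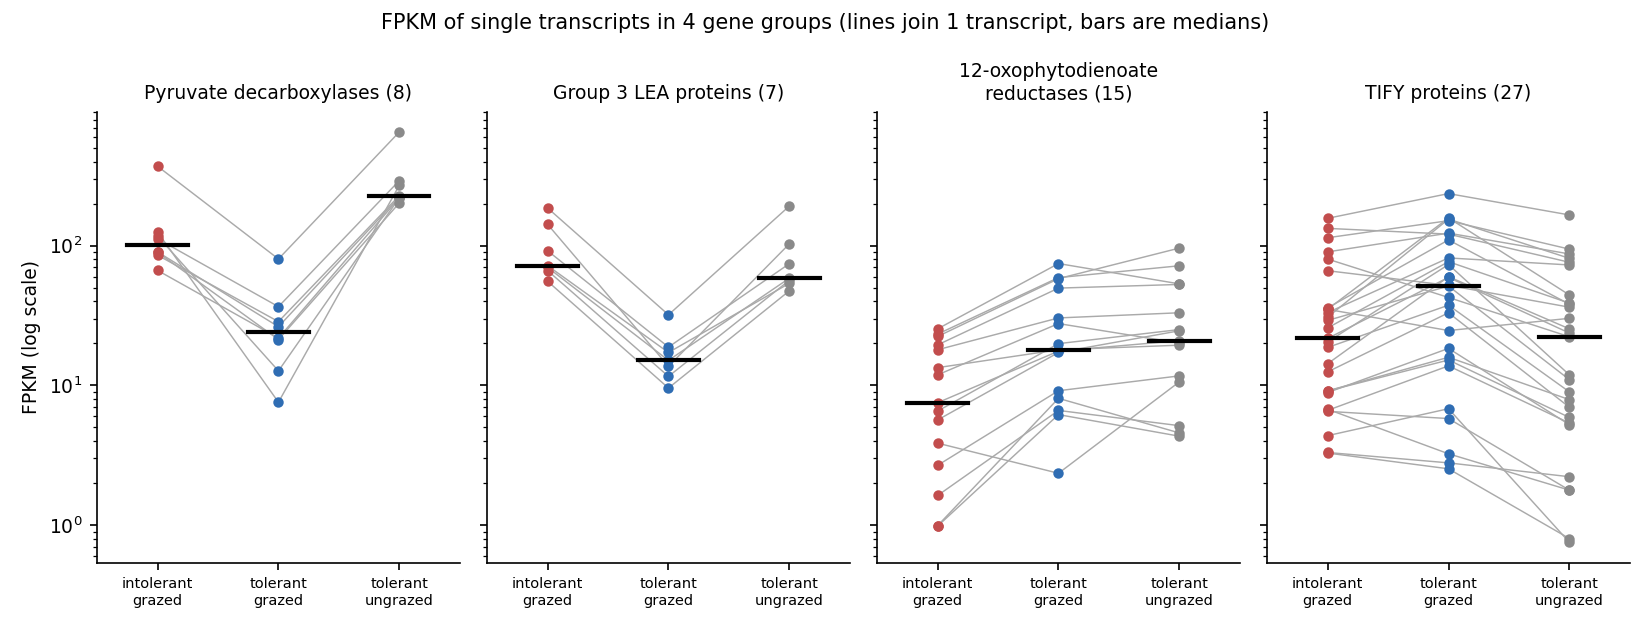
FPKM (log scale) of each transcript of the pyruvate decarboxylases, group 3 late embryogenesis abundant (LEA) proteins, 12-oxophytodienoate reductases and TIFY proteins in the intolerant grazed, tolerant grazed and tolerant ungrazed libraries. Lines join the values of 1 transcript and black bars are medians over transcripts, not over replicates; all 8 pyruvate decarboxylases and all 7 LEA transcripts are lowest in the tolerant grazed library, and 14 of the 15 reductases are lowest in the intolerant grazed library.

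Some families of dehydration and cold proteins were also higher in the intolerant grazed library. The group 3 LEA transcripts were lowest in the tolerant grazed library, as the pyruvate decarboxylases were. The dehydrin sums and the BudCAR4 transcript below were instead close in the tolerant libraries. All 7 group 3 LEA transcripts, which encode proteins that protect drying cells and here share a single best protein match, were higher in the intolerant grazed library, with log2 ratios between 2.06 and 3.37. Their summed FPKM was 683 in the intolerant grazed, 118 in the tolerant grazed and 586 in the tolerant ungrazed library, and CL318.Contig5_All had 142, 13.7 and 103 FPKM in that order. Of 12 dehydrins 5 were higher and 0 lower, with sums of 3057, 1427 and 1360 FPKM. The cold acclimation protein BudCAR4, CL6051.Contig1_All, was among the most abundant transcripts of the intolerant grazed library, at 3716 FPKM, against 945 in the tolerant grazed and 936 in the tolerant ungrazed library, a log2 ratio of 1.98 (1.94 to 2.01).

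Over the whole list of abscisic acid, dehydrin and late embryogenesis genes 17 of 82 were higher and 12 lower. The lower ones included 8 of the 18 abscisic acid 8'-hydroxylases, which break down the hormone and here had 4 best protein matches. Of the 18, 0 were higher, and their summed FPKM was 131 in the intolerant grazed, 247 in the tolerant grazed and 146 in the tolerant ungrazed library. Zeaxanthin epoxidase makes a precursor of the hormone, and CL4722.Contig3_All of that name had 4.15, 14.6 and 16.1 FPKM in that order, a log2 ratio of -1.82 (-2.1 to -1.54). Among transcripts of the list with at least 300 summed fragments the lowest ratio was that of the cold acclimation protein COR413-TM1, CL8568.Contig1_All, at 2.72, 33.7 and 42 FPKM, a log2 ratio of -3.63 (-4.06 to -3.22).

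Nitrogen handling was higher in the intolerant grazed library in part. Of 29 transcripts for nitrate reduction and amide nitrogen 8 were higher and 1 lower, with a median of 0.70, and of 119 nitrate, ammonium, amino acid and peptide carriers 30 were higher and 4 lower, with a median of 0.45. Asparagine synthetase makes the amide that legumes move between organs. Unigene25326_All, the most abundant of 4 such transcripts, had 822 FPKM in the intolerant grazed, 309 in the tolerant grazed and 452 in the tolerant ungrazed library, a log2 ratio of 1.41 (1.38 to 1.45), while CL5580.Contig1_All had 326, 342 and 213 FPKM. Nitrate reductase catalyses the first step of nitrate use, and Unigene18045_All had 9.76, 0.704 and 93.7 FPKM, a log2 ratio of 3.79 (3.36 to 4.25), so both grazed libraries were far under the tolerant ungrazed library. The other nitrate reductase transcripts lay within 2-fold, Unigene6788_All at 22, 15.9 and 6.31 FPKM. Of 13 nitrate transporters 6 were higher and 1 lower. The amino acid permease CL12165.Contig3_All had 14.6, 0.243 and 0.289 FPKM and a log2 ratio of 5.91 (4.67 to 7.54), and CL1509.Contig1_All, also an amino acid permease, had 4.14, 19.1 and 18.7 FPKM and a log2 ratio of -2.21 (-2.56 to -1.87).

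Starch and sucrose metabolism had 20 of 86 transcripts higher and 10 lower. Sucrose synthase, which splits sucrose for use in sink tissue, was divided, with 11 of 27 higher and 9 lower. Its most abundant contig, CL1276.Contig1_All, had 400, 307 and 1062 FPKM in the intolerant grazed, tolerant grazed and tolerant ungrazed libraries, within 2-fold between the grazed libraries, and Unigene5881_All had 4.27, 35 and 18.3 FPKM and a log2 ratio of -3.04 (-3.3 to -2.78). Of 20 beta-amylases, which break down starch, 6 were higher and 1 lower. Of 39 sugar transporters 1 was higher and 1 lower, and the sucrose transporter Unigene21645_All had 160, 153 and 276 FPKM. Storage proteins had 3 of 20 higher and 2 lower, and the root vegetative storage protein CL4715.Contig1_All lay within 2-fold at 14.2, 24.2 and 17.8 FPKM.

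The defining genes of green tissue were present at high levels in every library. The photosystem and chlorophyll binding list had 8 of 71 higher and 1 lower with a median of 0.15, which became -0.09 after recentring, so most of its transcripts differed little. A few very abundant ones did differ. The chlorophyll a/b binding protein CL215.Contig3_All had 8332 FPKM in the intolerant grazed, 2428 in the tolerant grazed and 1150 in the tolerant ungrazed library, a log2 ratio of 1.78 (1.77 to 1.79). The 14 chlorophyll a/b binding transcripts summed to 11279, 4480 and 2640 FPKM in that order, with 3 higher and 0 lower, and the 9 Rubisco small chains to 13792, 6415 and 7418 FPKM, with 5 higher and 0 lower. Other genes of the same tissue did not follow: the 47 photosystem subunits summed to 4396, 4438 and 3171 FPKM and the 6 Rubisco activases to 777, 927 and 1034 FPKM, with 0 of the 6 called. The part that a different share of leaf in the bulks has in any of the differences given here was not tested.

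No transcript was named as a leghemoglobin, the oxygen carrier of root nodules. Early nodulins, several of which are cell wall proteins, had 2 of 14 higher and 2 lower. Unigene22118_All, early nodulin 93, had 471 FPKM in the intolerant grazed, 69.6 in the tolerant grazed and 855 in the tolerant ungrazed library, a log2 ratio of 2.76 (2.67 to 2.84), while CL1831.Contig11_All, early nodulin 12B, had 26.9, 323 and 585 FPKM in that order and a log2 ratio of -3.59 (-3.71 to -3.46).

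Ribosomal proteins mostly lay within 2-fold between the grazed libraries. The 288 ribosomal proteins had a median of 0.23, which became -0.01 after recentring, and a summed FPKM of 20112 in the intolerant grazed, 17581 in the tolerant grazed and 15726 in the tolerant ungrazed library. The most abundant, the 40S protein S25 transcript Unigene11968_All, had 623, 769 and 533 FPKM. Among the few that were called, CL12332.Contig1_All, named as ribosomal protein S28e, had 82.6, 15.2 and 10.2 FPKM and a log2 ratio of 2.45 (2.21 to 2.69), and CL5552.Contig2_All, a 30S protein, had 3.74, 27.9 and 30.2 FPKM and a log2 ratio of -2.9 (-3.3 to -2.52). Translation factors had 21 of 171 higher and 18 lower, and 12 of the 18 were among the 21 transcripts named elongation factor Ts, an organelle factor with a median of -1.42. Heat shock proteins and chaperonins had 25 of 184 higher and 6 lower. The most abundant of these lists, the elongation factor 1-alpha transcript Unigene21201_All and the heat shock protein 70 transcript CL9292.Contig3_All, had 486 and 380 FPKM in the intolerant grazed, against 485 and 399 FPKM in the tolerant grazed library.

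Cell wall loosening and pectin enzymes had 35 of 163 higher and 20 lower, with a median of 0.14 that became -0.1 after recentring, but their summed FPKM was 10582 in the intolerant grazed, 16132 in the tolerant grazed and 16747 in the tolerant ungrazed library with much of the sum in extensins. Extensins are glycoproteins that stiffen the wall, and of 7 such transcripts 3 were lower and 0 higher, with sums of 5091, 10412 and 12182 FPKM. The 7 leave out 4 transcripts named as Pollen Ole e 1 allergen and extensin. Of these 4 were higher and 0 lower, with low sums of 69.9, 13.6 and 9.32 FPKM. CL12758.Contig2_All, an extensin, had 2037, 4871 and 4984 FPKM and a log2 ratio of -1.26. Polygalacturonases cut pectin, and CL179.Contig3_All had 12.5, 0.572 and 0.741 FPKM, a log2 ratio of 4.45 (3.85 to 5.12). Of 29 xyloglucan endotransglucosylases, which rejoin wall chains during growth, 8 were lower and 3 higher. Genes of cellulose, callose and wall polymers mostly stayed within 2-fold, with 11 of 131 higher and 9 lower.

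Phenylpropanoid and lignin synthesis was divided, with 25 of 101 higher and 21 lower. Phenylalanine ammonia-lyase opens the pathway, and of 12 such transcripts 6 were lower and 3 higher, with a summed FPKM of 197 in the intolerant grazed, 281 in the tolerant grazed and 317 in the tolerant ungrazed library. Of 6 legume-matched hydroxycinnamoyltransferase-like transcripts of the lignin branch, 3 reached the minimum of 100 summed fragments. These 3, with 2 best protein matches, were higher, with low sums of 28.9, 3.2 and 1.59 FPKM. They reached the minimum mainly through the intolerant grazed library, so their direction partly follows from the minimum. The laccase CL132.Contig1_All, an enzyme that joins lignin units, had 0.643, 8.23 and 5.57 FPKM and a log2 ratio of -3.68 (-4.34 to -3.08), and the abundant caffeoyl-CoA O-methyltransferase Unigene1854_All had 488, 368 and 404 FPKM. Flavonoid and isoflavonoid synthesis had 30 of 154 higher and 19 lower, with a median of 0.21 that became -0.03 after recentring. The highest and the lowest ratio among transcripts of the list with at least 300 summed fragments belonged to enzymes of the same name: the isoflavone-7-O-methyltransferase CL9035.Contig3_All had 14.1, 1.01 and 1.29 FPKM, a log2 ratio of 3.8 (3.16 to 4.51), and Unigene30007_All had 0.205, 73 and 75.6 FPKM, a log2 ratio of -8.48 (-10.76 to -6.93).

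Cuticle and lipid transfer genes had 20 of 98 higher and 10 lower. The non-specific lipid-transfer protein CL1815.Contig4_All had 1568 FPKM in the intolerant grazed, 2347 in the tolerant grazed and 197 in the tolerant ungrazed library, so both grazed libraries were far above the ungrazed one and within 2-fold of each other. Among terpene, sterol and saponin genes 5 of 64 were higher and 3 lower, and the squalene epoxidase CL6151.Contig2_All, at the entry to sterols and saponins, had 86.3, 190 and 173 FPKM and a log2 ratio of -1.14 (-1.19 to -1.08). Cytochrome P450s had 37 of 177 higher and 29 lower, and UDP-glycosyltransferases 36 of 184 higher and 24 lower. Class III peroxidases had 13 of 63 higher and 8 lower, and glutathione transferases and antioxidant enzymes 10 of 124 higher and 7 lower. Aquaporins, the water channels, had 11 of 32 higher and 3 lower, of which 5 remained higher and 5 were lower after recentring.

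Regulators of development and day length were more often higher than lower in the intolerant grazed library. All transcripts together leaned the same way, at 14.3% higher and 8.45% lower, so part of this lean is the general shift. Clock, flowering and light receptor genes had 18 of 69 higher and 2 lower, or 11 and 3 after recentring, with a median of 0.57. Among them CONSTANS-like zinc fingers, named for a regulator of flowering by day length, had 12 of 39 higher and 1 lower, and phytochromes, cryptochromes and phototropins, the light receptors, 4 of 13 higher and 0 lower, while the 3 transcripts of gigantea, a clock protein, were within 2-fold. CL1956.Contig1_All, a CONSTANS-like protein, had 33 FPKM in the intolerant grazed, 7.19 in the tolerant grazed and 14.9 in the tolerant ungrazed library, a log2 ratio of 2.2 (2.02 to 2.38). Homeobox, MADS-box and meristem regulators had 42 of 209 higher and 12 lower, or 30 and 17 after recentring, with a median of 0.45. The BEL1-like homeodomain proteins accounted for 12 of these 42, out of 30, with 2 lower. CL9817.Contig1_All, which matches ATHB-7, a homeobox gene induced by drought and abscisic acid in *Arabidopsis*, had 20.9, 2.03 and 5.84 FPKM and a log2 ratio of 3.36 (3.01 to 3.73).

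Other transcription factors were mixed. AP2/ERF factors had 30 of 138 higher and 17 lower, MYB factors 19 of 84 higher and 6 lower, bHLH and bZIP factors 27 of 158 higher and 16 lower, and NAC factors 8 of 52 higher and 9 lower. The MYB-related transcript Unigene38804_All had 21.8, 0.548 and 0.46 FPKM in the intolerant grazed, tolerant grazed and tolerant ungrazed libraries, a log2 ratio of 5.31 (4.52 to 6.23). The ethylene-responsive factor CL10922.Contig2_All had 1.42, 20 and 6.28 FPKM in that order, a log2 ratio of -3.82 (-4.48 to -3.22). Ubiquitin ligases and F-box proteins, which mark proteins for breakdown, were the largest list, with 186 of 1094 higher and 47 lower. The F-box protein CL1105.Contig2_All had 16.6, 0.27 and 0.459 FPKM and a log2 ratio of 5.95 (4.89 to 7.27). Histones, cyclins and cell division genes had 35 of 329 higher and 27 lower, and Unigene3584_All, a histone H3, had 370, 280 and 920 FPKM, so the grazed libraries lay within 2-fold of each other and under the ungrazed one.

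Hormone lists other than jasmonate stood near the median of all transcripts. Ethylene genes had 18 of 95 higher and 9 lower, auxin genes 28 of 194 higher and 13 lower, and gibberellin, cytokinin, strigolactone and brassinosteroid genes 27 of 165 higher and 18 lower. The EIN3-binding F-box protein CL7075.Contig1_All, which limits ethylene signalling, had 15.5 FPKM in the intolerant grazed, 3.07 in the tolerant grazed and 7.98 in the tolerant ungrazed library, a log2 ratio of 2.34 (2.1 to 2.58). Auxin-repressed proteins differed between contigs of a cluster: CL495.Contig1_All had 320, 81.6 and 160 FPKM and CL495.Contig4_All had 348, 808 and 638 FPKM. The auxin-induced proline-rich protein CL13466.Contig1_All had 80.4, 665 and 972 FPKM and a log2 ratio of -3.05 (-3.14 to -2.96).

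The remaining lists had calls in both directions or few of them. Chlorophyll and carotenoid synthesis had 9 of 41 higher and 3 lower, Rubisco and Calvin cycle enzymes 6 of 31 higher and 0 lower, raffinose family synthesis 1 of 4 higher and 0 lower, and nodulins of all kinds 6 of 28 higher and 2 lower. Protease inhibitors had 6 of 31 higher and 3 lower, proteases 18 of 200 higher and 21 lower, or 9 and 33 after recentring, lectins and lectin receptor kinases 6 of 46 higher and 9 lower, and ABC and multidrug transporters 20 of 161 higher and 13 lower, of which 12 were higher and 20 lower after recentring. Transposon-related sequences had 12 of 38 higher and 5 lower. The serine proteinase inhibitor CL10060.Contig3_All, of a family induced by wounding, had 564, 1469 and 1044 FPKM in the intolerant grazed, tolerant grazed and tolerant ungrazed libraries and a log2 ratio of -1.38 (-1.42 to -1.34), and CL10060.Contig4_All of the same cluster had 1196, 907 and 681 FPKM.

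Among legume-matched transcripts with a named function, 5 of the 10 most abundant were the same in both grazed libraries. The repetitive proline-rich cell wall protein Unigene12296_All led both of these rankings. It had 9057 FPKM in the intolerant grazed and 7712 in the tolerant grazed library, against 15798 in the tolerant ungrazed library. Its relative CL9910.Contig3_All had 5748, 5982 and 11939 FPKM in that order. For both transcripts the grazed libraries lay within 2-fold of each other and under the tolerant ungrazed library. Whether grazing, the block or the bulk made this difference was not tested. ABR17, an abscisic acid-responsive protein, and a harvest-induced protein were among the 10 highest in both grazed libraries, CL1123.Contig2_All at 3176, 2427 and 1862 FPKM and Unigene49_All at 3125, 2398 and 1918 FPKM. The metallothionein Unigene15256_All, a metal-binding protein, had 2590, 4231 and 3514 FPKM. Of the 10 highest in the intolerant grazed library, the Rubisco small chain contigs CL8539.Contig1_All, CL8539.Contig2_All, CL8539.Contig3_All and CL8539.Contig4_All and the chlorophyll binding and BudCAR4 transcripts given above were the ones near or past 2-fold.

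Some transcripts were seen in practice in a single grazed library. With at least 100 fragments in the intolerant grazed and 3 or fewer in the tolerant grazed library there were 99, a share of 0.34% of the 29144, and with the reverse there were 78, a share of 0.268%. Over all 33288 transcripts with at least 100 fragments the shares were 0.658% and 0.676%, and over the 4144 without a legume match 2.9% and 3.55%. The 99 had a median of 162 fragments and a highest count of 2977 in the intolerant grazed library, and 55 had 0 fragments in the tolerant grazed library. The 78 had a median of 168 and a highest count of 2188 in the tolerant grazed library, and 35 had 0 fragments in the intolerant grazed library.

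The sets also differed in the tolerant ungrazed library. That library came from propagules of the same plants as the tolerant grazed library, so a difference in this direction partly follows from how the sets were chosen. Of the 99 seen in the intolerant grazed library 0 reached 100 fragments in the tolerant ungrazed library and 87 had 3 or fewer there, so most were unseen in either library of the tolerant population. Of the 78 seen in the tolerant grazed library 39 reached 100 in the tolerant ungrazed library, 29 lay between and 10 had 3 or fewer. When fragments were summed over all transcripts that share the best protein match, 44 of the 99 had at least 100 fragments in the tolerant grazed library and 31 had 3 or fewer, and 34 of the 78 had at least 100 in the intolerant grazed library and 22 had 3 or fewer. For these 44 and 34 the contig was missing from a library but transcripts for the same protein were not. Alfalfa is an outcrossing autotetraploid, and alleles of a gene and separate genes cannot be told apart among such contigs.

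Among transcripts seen in the intolerant grazed library, the pair with the most fragments matched the splicing factor prp45. Unigene34346_All had 2977 fragments in the intolerant grazed, 1 in the tolerant grazed and 0 in the tolerant ungrazed library, and Unigene34345_All had 2176, 1 and 2, giving log2 ratios of 11.56 (9.08 to 16.87) and 11.11 (8.63 to 16.41). Over all transcripts of that protein the sums were 5171, 21 and 41 fragments. An alpha-amylase, Unigene37426_All, had 2001, 3 and 7 fragments, a log2 ratio of 9.4 (7.86 to 11.68), and no other transcript of its protein added to these counts. Alpha-amylases break down starch, and legumin B is a seed storage protein: Unigene39532_All of that name had 398, 2 and 0 fragments.

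Contigs named for transducin beta-like protein 3 were seen together. CL1544.Contig1_All had 737 fragments in the intolerant grazed and 0 in both tolerant libraries, at least 250-fold higher than the floor, CL1544.Contig2_All had 502, 1 and 0, and CL1544.Contig4_All had 303, 0 and 0, at least 103-fold higher. The sums over that protein were 1812, 33 and 41 fragments. A pentatricopeptide repeat protein, of a family that binds organelle RNA, Unigene34799_All, had 613, 1 and 4 fragments, and the ATR kinase transcript CL7731.Contig1_All, of a kinase that senses damaged DNA, had 253, 0 and 1. The protein sums of that kinase transcript were 286, 21 and 17 fragments, while CL1374.Contig2_All, also named ATR but with another best protein match, had 104, 0 and 0 fragments and protein sums of 812, 350 and 311.

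For others the same protein was present in both grazed libraries. The WD repeat protein CL8454.Contig2_All had 1180, 1 and 1 fragments, but the protein sums were 1573 in the intolerant grazed, 318 in the tolerant grazed and 375 in the tolerant ungrazed library. The sentrin-specific protease CL7894.Contig2_All had 567, 0 and 0 fragments, at least 192-fold higher, with protein sums of 3144, 436 and 15. The resistance protein contigs CL9834.Contig3_All and CL9834.Contig4_All had 458 and 440 fragments in the intolerant grazed library and 0 in both tolerant libraries, at least 155-fold and 149-fold higher, with protein sums of 960, 654 and 191. The somatic embryogenesis receptor-like kinase CL444.Contig1_All had 278, 2 and 0 fragments, with protein sums of 862, 282 and 262, and the DNA (cytosine-5)-methyltransferase CL6719.Contig1_All, an enzyme that methylates DNA, had 245, 3 and 2, with protein sums of 1298, 587 and 277.

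**Figure D5:**
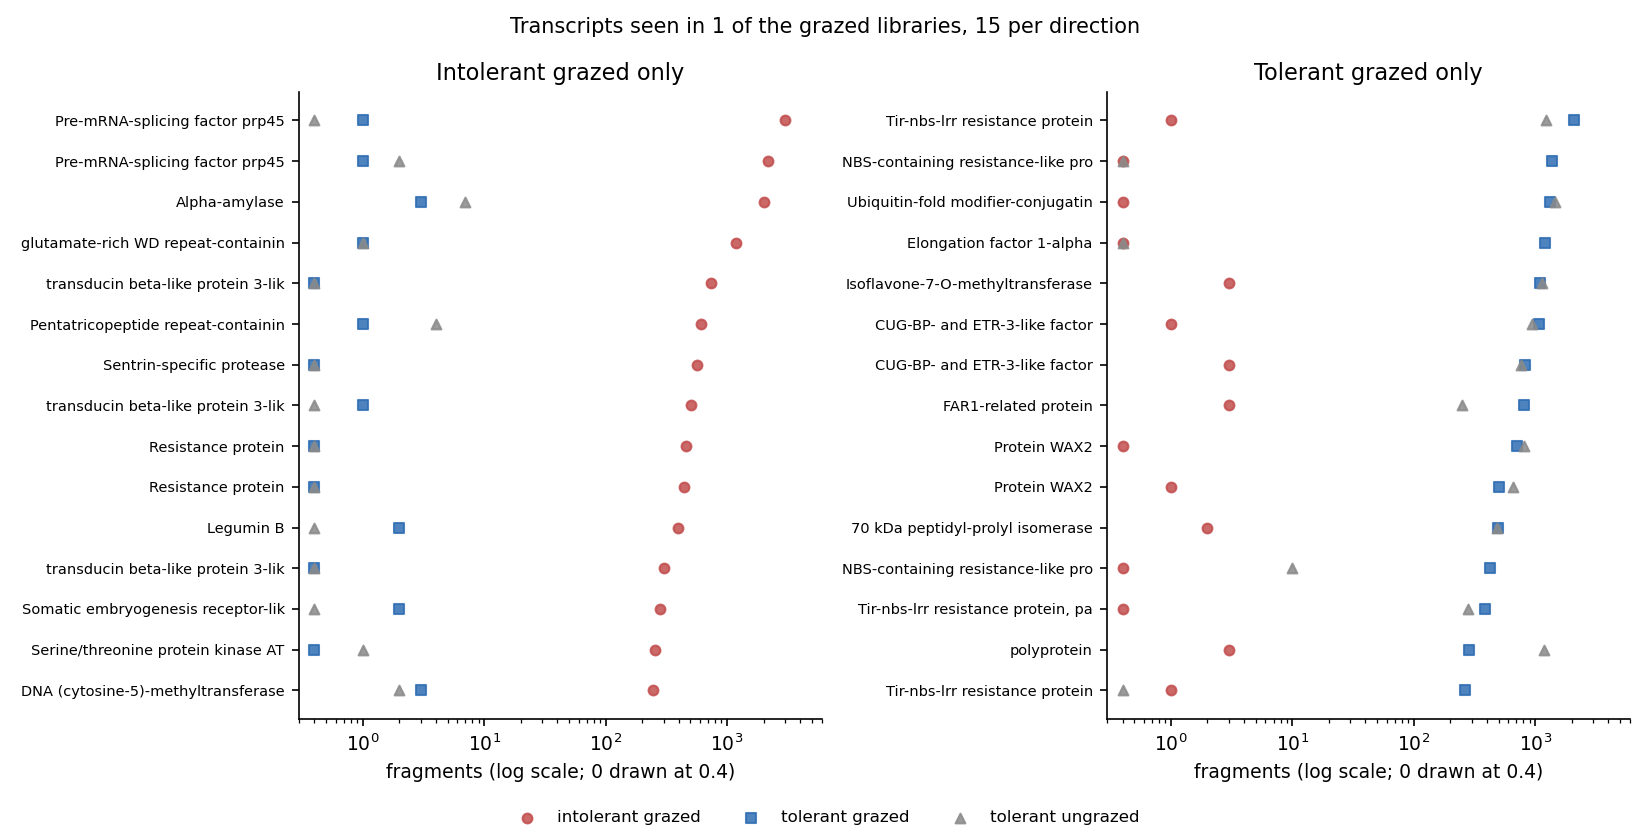
Fragments (log scale, 0 drawn at 0.4) of the 15 transcripts with a named function and the most fragments among those seen in the intolerant grazed library (left) and in the tolerant grazed library (right), in the intolerant grazed (red circles), tolerant grazed (blue squares) and tolerant ungrazed (grey triangles) libraries. On the left the tolerant ungrazed library stays at 7 fragments or fewer; on the right it lies near the tolerant grazed library for most transcripts and at 10 or fewer for 4 of the 15.

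Among transcripts seen in the tolerant grazed library, resistance proteins led. They made up 13 of the 78 (16.7%), against 6 of the 99 seen in the intolerant grazed library (6.06%), and are 2.06% of the 29144 transcripts. CL1364.Contig1_All, an NBS-containing protein, had 0 fragments in the intolerant grazed, 1380 in the tolerant grazed and 0 in the tolerant ungrazed library, a level at least 453-fold lower in intolerant plants. CL1364.Contig2_All had 0, 425 and 10 fragments, at least 139-fold lower, and the protein sums were 42, 2036 and 226. Unigene29203_All, a TIR-NBS-LRR protein, had 1, 265 and 0 fragments, with protein sums of 121, 561 and 312, so its contig but not its protein was absent from the other libraries.

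Most of the other named transcripts were seen in both libraries of the tolerant population. The isoflavone-7-O-methyltransferase Unigene30007_All, given above in FPKM, had 3 fragments in the intolerant grazed, 1087 in the tolerant grazed and 1134 in the tolerant ungrazed library, and it was the only transcript of its protein. The WAX2 contigs CL6728.Contig3_All and CL6728.Contig1_All, named for a gene of leaf wax in *Arabidopsis*, had 0, 704 and 808 and 1, 504 and 656 fragments, the first at least 231-fold lower. Unigene44340_All, the conjugating enzyme of the ubiquitin-like modifier UFM1, had 0, 1330 and 1459 fragments, at least 436-fold lower, though its protein summed to 440, 2068 and 2060. The peptidyl-prolyl isomerase Unigene9601_All, a protein folding enzyme, had 2, 494 and 481 fragments, and the FAR1-related protein Unigene22853_All, of a family derived from transposases, had 3, 812 and 250.

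The clearest case of a contig missing where its protein was not was that of the RNA-binding CUG-BP and ETR-3-like factor. CL10473.Contig2_All had 1, 1079 and 935 fragments and CL10473.Contig4_All 3, 818 and 763 in the intolerant grazed, tolerant grazed and tolerant ungrazed libraries, while the sums over the protein were 9732, 10585 and 8068. The elongation factor 1-alpha contig CL773.Contig10_All had 0, 1196 and 0 fragments, at least 392-fold under the tolerant grazed plants, and its protein sums of 22, 1331 and 113 kept that order, while Unigene21201_All of the same name had the even levels given above. A polyprotein of a transposable element, CL11999.Contig3_All, had 3, 283 and 1183 fragments, with protein sums of 641, 1526 and 3305.

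The limits of 100 and 3 fragments cut through a continuous range. Just inside them, CL1660.Contig7_All had 100 fragments in the intolerant grazed and 0 in the tolerant grazed library, and CL374.Contig7_All had 2 in the intolerant grazed and 100 in the tolerant grazed library. Just outside, 8 transcripts with at least 100 fragments in the intolerant grazed library had 4 in the tolerant grazed library, among them Unigene41237_All, a ribosomal RNA methyltransferase, with 636 and 4 fragments. In the other direction 11 had 4 fragments in the intolerant grazed library, among them the TIR-NBS-LRR protein Unigene3008_All with 4 and 542 fragments.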

How the data were processed

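RNA from bulks of intolerant grazed, tolerant grazed and tolerant ungrazed plants was sequenced as 3 libraries, 1 per group by their labels. Per the paper's methods, the authors ran Trinity for de novo assembly and TGICL for clustering, annotated by BLAST and used SOAP to align reads back. Program versions are not given in the sources used here. The authors deposited, for each transcript, its length, the raw count of uniquely aligned fragments and the FPKM, which is that count per kilobase and per megafragment aligned to all transcripts. Per-sample columns left unused numbered 0. Unique alignment can divide the fragments of near-identical contigs, so contigs of a cluster and members of gene families are uncertain singly.

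Legume matches were found by the names of *Medicago*, *Glycine*, *Lotus*, *Pisum*, *Cicer* and *Trifolium* in both annotations. The log2 ratio of FPKM used 0.01 for an FPKM of 0, a threshold of 1, exact Clopper-Pearson 95% intervals from the fragments and a floor of 3 fragments per library. No test across samples was possible with 1 library per group. The transcripts compared, the lists and the gene groups were chosen with earlier results of these data known, and the wording of the lists was trimmed, and that of the resistance proteins widened, after names were seen. Gene groups within lists were picked with their values in view. The text names, among transcripts with a named function, the 15 with the most fragments seen in each grazed library only, the highest and the lowest log2 ratio of a list among those with at least 300 summed fragments, the most abundant transcript of a list and the 10 highest in FPKM of each grazed library. Other transcripts named, among them CL4238.Contig2_All, were chosen after their values were seen. Alternatives were another handling of 0, other scalings, other minimum counts, limits and thresholds, a minimum length, *Medicago* matches only, a Poisson test on the fragments, and sums per cluster or protein. The computations were tested on simulated data. Computations ran in Python 3.11.15 (numpy 2.4.6, with pandas at 2.3.3, SciPy at 1.17.1) and figures in matplotlib 3.10.9.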

Additional observations from a re-analysis of the deposited data

How the results depend on the processing

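No paired analysis was possible because each group had 1 library. The count of transcripts higher in the intolerant grazed library was 2760 after recentring, 9253 with a minimum of 20 and 1993 with a minimum of 300 summed fragments, 2725 summed per assembly cluster, 2123 summed per best protein match, 892 at a threshold of 2 and 2275 with the exact interval wholly past 1, against 4162. The count lower was 5007, 1262, 1537, 1187 and 806 under the minimums of 20 and 300, the sums per cluster and per protein and the threshold of 2, against 2464. Transcripts seen in the intolerant grazed library only were 236, 39 and 55 under limits of 50 and 3, 200 and 3, and 100 and 0 fragments, 63 per cluster and 26 per protein, against 99, and those seen in the tolerant grazed library only were 196, 30 and 35 under the same limits and 16 per protein, against 78. The other alternatives kept these counts within 1.5 times. The median log2 ratio was 0.1 with legume-matched fragments as the total. Fewer or more transcripts pass by construction under other minimums, units and limits. With 1 library per group, the spread between plants is unknown, and depth limits single transcripts near 100 fragments most.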
